A study of Mus musculus with 4 samples.

Results

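The regions described here belong to 10 genes of the ETS family of transcription factors: Ets1, Ets2, Elf1, Elf2, Elf4, Etv3, Etv6, Elk3, Spib and Erg. Peaks from the 4 ATAC-seq libraries were joined into regions where they shared at least 1 bp, and a region was taken when the gene name of its highest peak was 1 of the 10. This gave 97 of the 60710 regions, for 9 of the 10 genes. No region carried the name Spib. ATAC-seq maps accessible chromatin through the insertion of sequencing adapters by the Tn5 transposase. The cells were wild-type bone marrow-derived macrophages (BMDMs) from mice of 8 to 12 weeks, grown out of marrow over 6 days with L929 supernatant, which supplies the growth factor M-CSF. Control BMDMs (n = 2 libraries) received no cytokine, and IL-4 BMDMs (n = 2 libraries) received IL-4 at 20 ng/ml for 1 h.

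ETS proteins share a winged helix-turn-helix domain that reads the DNA core GGAA, and the bases beside the core decide which members bind best. PU.1, the product of Spi1, and its close relative Spi-B prefer an A-rich flank, whereas most other members prefer CCGGAAG. Ets1, Ets2 and Erg can act as activators, Etv3, Etv6 and Elk3 are known mainly as repressors, and PU.1 is the ETS factor on which macrophage identity depends. IL-4 activates STAT6, which binds TTC and GAA separated by 4 bases, while other STAT proteins bind the same arms separated by 3 bases.

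The value of a peak is the deposited peak score, read here as -log10 of the MACS2 q-value, a unit that no label states. It states the evidence for a peak in its own library and grows with sequencing depth, which is unknown because the files analysed hold no reads. The control libraries held 45250 and 41885 peaks and the IL-4 libraries 41978 and 39462, and the median score was between 6.41 and 8.04, lowest in IL-4 replicate 2. Of 10 macrophage markers, 8 had a start site region in every library, against 1 of 5 B cell markers (Ebf1), 0 of 5 T cell markers, 1 of 5 neutrophil markers (S100a8), 0 of 5 endothelial or stromal markers and 1 of 5 erythroid or megakaryocyte markers (Pf4). In each library the scores of the macrophage start sites summed to between 82.1 and 104. In such bulk samples, a change in the accessibility of each cell and a change in the share of cells cannot be told apart. The methods name biological replicates without saying whether they were separate animals.

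IL-4 BMDMs had 3 regions of the ETS genes with a peak in both of their libraries and in neither control library. These are shown first. A region found in 1 group only rests on peak calls, and a missing peak may be a weak one. They lay 5978 bp downstream of the Ets2 start in intron 2 of 9, 77110 bp downstream of the Ets1 start in intergenic DNA, and 74823 bp upstream of the Etv6 start in intergenic DNA. Capitals mark matches on either strand to any of 5 motifs: CCGGAAG (the form favoured by most of the family), GAGGAAG (the form favoured by PU.1 and Spi-B), the STAT6 motif with 4 bases between the arms, TTCNNNGAA and the AP-1 motif TGANTCA. Sequences are from the plus strand of mm10, read 5′ to 3′.
Ets2 intron 2, chr16:95708302-95708496: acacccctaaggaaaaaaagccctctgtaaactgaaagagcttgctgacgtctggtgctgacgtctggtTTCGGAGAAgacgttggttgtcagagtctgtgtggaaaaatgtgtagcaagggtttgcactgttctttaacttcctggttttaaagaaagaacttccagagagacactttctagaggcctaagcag
Ets1 downstream, chr9:32773078-32773227: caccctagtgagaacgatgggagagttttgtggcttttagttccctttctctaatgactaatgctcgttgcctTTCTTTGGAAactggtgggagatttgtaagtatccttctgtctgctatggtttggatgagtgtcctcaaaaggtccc
Etv6 upstream, chr6:133960753-133960954: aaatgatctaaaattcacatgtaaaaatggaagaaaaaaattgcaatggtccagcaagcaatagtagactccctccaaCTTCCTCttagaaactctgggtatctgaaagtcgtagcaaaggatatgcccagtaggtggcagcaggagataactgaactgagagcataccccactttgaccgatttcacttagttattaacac

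The Ets2 intron held TTCGGAGAA, with 3 bases between the arms, and scored 8.74 and 7.08 in the IL-4 libraries. The Ets1 region held TTCTTTGGAA, with the 4-base spacing of STAT6, and scored 4.11 and 10.29. The Etv6 region held only CTTCCTC, the reverse complement of GAGGAAG, and scored 4.11 and 6.43. All 3 regions were without a peak in both control libraries. The 3 regions made up 3.09% of the 97, beside 2.53% of all 60710 regions that had a peak in both IL-4 libraries and no control library.

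The reverse pattern, a peak in both control libraries and no IL-4 library, was seen at 4 regions, or 4.12% of the 97, beside 4.33% of all regions. Elk3, a ternary complex factor that partners with serum response factor, had 2 of them. The first covered its 5′ UTR 172 bp downstream of the start (exon 1 of 5) and scored 6.83 and 6.74 in the controls. The second lay in intron 2 of 4, 37362 bp downstream, and scored 2.44 and 4.93. Etv6, the repressor also called TEL, had the other 2, both in intron 1 of 7. The region 37378 bp downstream of the start scored 6.16 and 4.58, and the region 80010 bp downstream scored 7.92 and 6.08. Each had a neighbouring Etv6 region with a peak in an IL-4 library. The neighbour 36898 bp downstream scored 5.04 in IL-4 replicate 1, and the neighbour 79484 bp downstream scored 4.89 in IL-4 replicate 2. Shares of both kinds were close to those of the whole genome, so group-only regions were not a result about the ETS genes as a group.

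**Figure D1:**
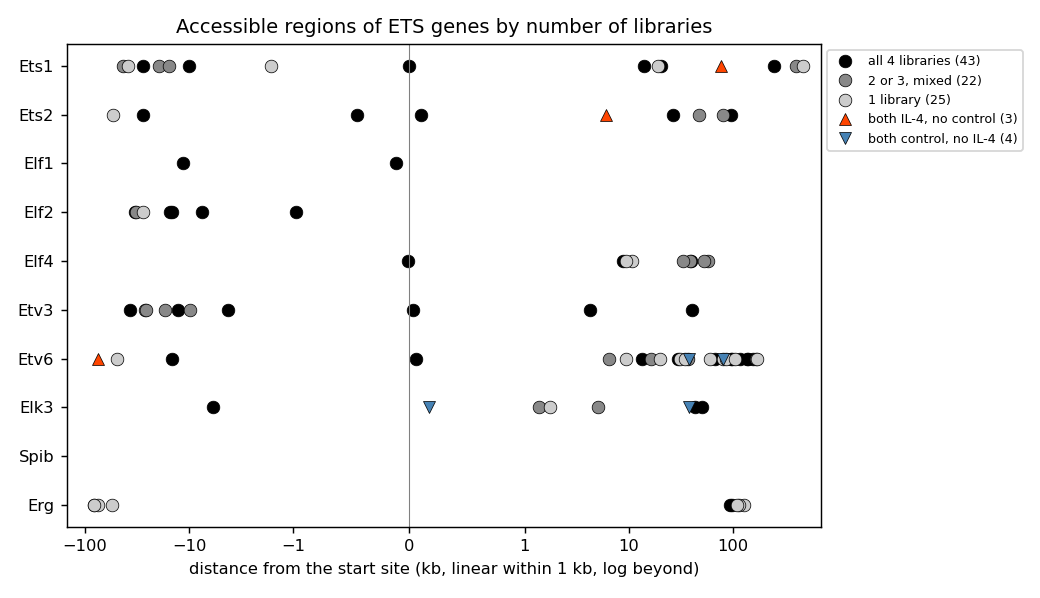
Position of each of the 97 regions from the annotated start of its gene (kb, linear within 1 kb and logarithmic beyond), 1 line per gene, coloured by the libraries that had a peak. The 43 regions found in every library lay in 9 genes, the 3 IL-4-only regions in Ets1, Ets2 and Etv6, the 4 control-only regions in Etv6 and Elk3, and Spib had none.

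The number of peaks that carried the name of an ETS gene was 77 and 67 in the control libraries and again 77 and 67 in the IL-4 libraries. The mean was therefore 72 ± 7.07 (SD, n = 2) in each group and the difference was 0 (exact permutation test, two-sided p = 1, where the design cannot go below 0.3333). Etv6 had the most regions, 28, more than 99.7% of the 16244 genes with any region, and 25 of them lay over the Etv6 gene body of 234459 bp. Ets1, best known from lymphocytes, followed with 15 regions, and Etv3 had 10. Ets2, Elf4 and Erg had 9 each, Elk3 had 8, Elf2 had 7 and Elf1 had 2, where the median over genes was 2. Elk3 was the only gene with a library far below the rest, with 7, 7 and 7 peaks in the controls and IL-4 replicate 1 and 3 peaks in IL-4 replicate 2. That library also had the fewest peaks in all, and its part in the low number was not tested.

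Of the 97 regions, 43 had a peak in all 4 libraries (44.3%, beside 41.9% of all regions), 17 in 3, 12 in 2 and 25 in a single library (25.8%, beside 29.6%). The genes differed in this respect. Both Elf1 regions and 5 of 7 Elf2 regions were found in every library, whereas 6 of 9 Erg regions were found in only 1. Erg, a factor of endothelium and blood stem cells, kept 2 regions in all 4 libraries, both in intron 2 of 10. The ETS regions were more often intronic than regions at large (52.6% beside 40.2%) and less often within 1 kb of a start site (9.28% beside 24.8%), as counts without a test. Etv6 alone gave 28 of the 97 regions, 25 of them over its gene body. The high intronic share rests largely on that gene and is no trait of the ETS regions as a group. A total of 33 lay beyond 50 kb from the start of the gene they were named for. The median mean score of the shared regions was 9.02, beside 10.8 for all shared regions.

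A nearest-start name is not proof that a region serves the gene. Of the 97 regions, 64 lay over the body of their own gene, 12 only over the body of another gene and 21 over none. The Elf1 region 11405 bp upstream of the start lay in intron 7 of 9 of Wbp4, and 2 Elf2 regions lay over the proline tRNA genes n-TPtgg7 and n-TPagg5. Etv3 had 3 regions in intron 11 of 11 of Fcrl5, an Fc receptor-like gene.

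The scores of the 43 shared regions were compared after a log2 transformation and quantile normalization, so that a log2 change is the IL-4 mean minus the control mean on that scale. No ETS region passed limma at an adjusted p of 0.05, beside 6 of 25442 regions in all (0.0236%). The lowest adjusted p among the ETS regions was 0.212. An unadjusted p under 0.05 was found for 3 of the 43, beside 8.28% of all shared regions. The log2 changes ran from -1.31 to 1.35 with a median of -0.14, beside -0.0006 over all shared regions, and their SD was 0.52, beside 0.50. There were 18 changes above 0 and 25 below (58.1%, beside 50.1% of all shared regions). Etv6 alone gave 9 of the 25.

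Regions whose 2 IL-4 values lay above both control values after normalization numbered 7 of 43 (16.3%, beside 19.2% of all shared regions). Those with both IL-4 values below both control values numbered 9 (20.9%, beside 18.6%). Both shares were near those of all shared regions. By gene, the median log2 change was 0.75 for Erg, 0.18 for Elf1, 0.01 for Ets1, -0.09 for Ets2, -0.16 for Elf2, -0.17 for Elk3, -0.25 for Etv3, -0.30 for Etv6 and -0.59 for Elf4. Etv6 had 9 of its 11 shared regions below 0, and the 6 shared regions of Ets1 were divided into 4 above and 2 below.

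**Figure D2:**
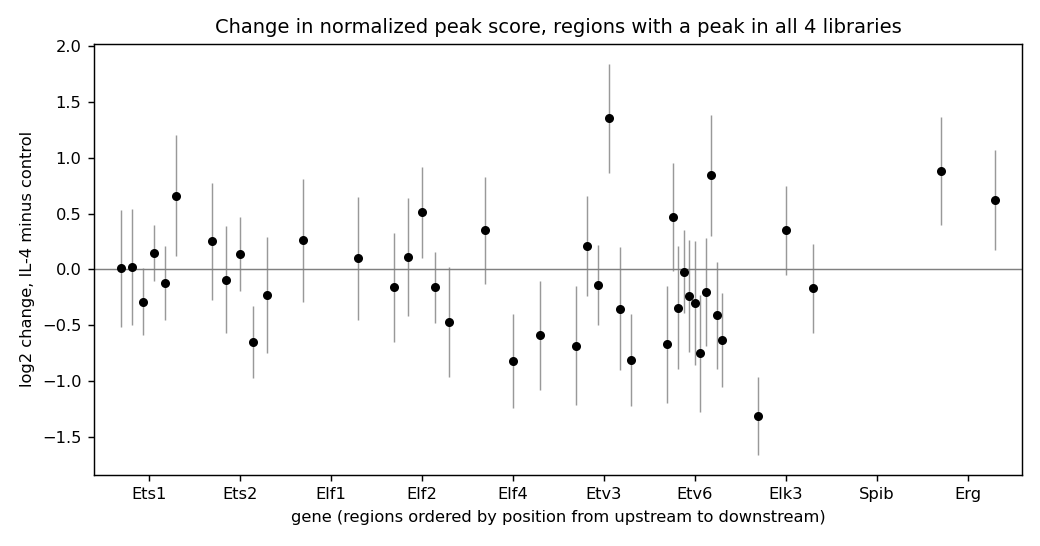
Log2 change in normalized peak score (IL-4 minus control) of the 43 regions found in every library, by gene and ordered from upstream to downstream, with the limma standard error as bars. The values ran from -1.31 at an Elk3 region to 1.35 at the Etv3 start, and none passed the adjusted threshold.

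Start sites come next, since a promoter is the element tied most surely to its gene. All values are given as control replicates 1 and 2, then IL-4 replicates 1 and 2. Overlap between groups refers to the deposited scores, and where normalization altered it, both scales are described. For regions named for any other gene, only the deposited scale is described. The median deposited score over all shared regions was 12.52 and 11.01 in the controls and 11.14 and 8.86 after IL-4. No share over all regions was counted for overlap as deposited. The Etv3 start, the promoter of a repressor linked to growth arrest in differentiating macrophages, scored 4.67 and 7.08 in the controls and 13.29 and 11.80 after IL-4 (chr3:87525431-87525726). Both IL-4 libraries were above both controls without overlap. The log2 change was 1.35 ± 0.49 (SE), or 2.54-fold, and it was the largest upward change of the 43 (limma unadjusted p = 0.0078, adjusted p = 0.404). The change was 0.96 to 1.73 over all alternatives. The 146 bases of this region that precede the RefSeq start are shown with the core GGAA, on either strand, in capitals.
Etv3 upstream of the start, chr3:87525431-87525576: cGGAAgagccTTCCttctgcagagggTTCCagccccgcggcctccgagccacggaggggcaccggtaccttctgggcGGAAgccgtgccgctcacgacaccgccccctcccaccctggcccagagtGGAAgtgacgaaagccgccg

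These bases held 5 matches to GGAA and none to the 5 longer motifs. In the 146 bases before 32851 RefSeq starts the median was 1 match, 80% had at least 1, and 96.4% had fewer than Etv3. Within these bases, the 5 matches are cores without the flanks that make up either longer ETS motif. The first core lies at the edge of the region, with only 1 base before it. A match to CCGGAAG there would need a base outside the region, which was not searched.

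Ets1 had the highest start site of the 10 genes. It scored 29.53 and 20.02 in the controls and 30.10 and 10.19 after IL-4, higher on average than 84.5% of the 9118 start site regions shared by all libraries. IL-4 replicate 2 was the low value, the groups overlapped, and the log2 change was -0.29 ± 0.30 (adjusted p = 0.864). The change was 0.30 without IL-4 replicate 2, so its direction rests on that library. Another curated Ets1 start, further upstream, had no region nearer than 16069 bp. Ets2, which is activated downstream of the M-CSF receptor in macrophages, scored 23.30, 12.47, 18.55 and 14.36 at its start, and the groups overlapped (log2 change 0.14 ± 0.33). A second region 450 bp upstream of Ets2 scored 10.09, 9.37, 9.35 and 6.37 (log2 change -0.09 ± 0.48). Its IL-4 scores were below both controls as deposited, but the groups overlapped after normalization.

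Elf1, Elf2 and Elf4 form a subfamily of mainly activating factors. The region named Elf1 at its start scored 4.69, 5.21, 4.65 and 4.43, and only 2.41% of the start site regions shared by all libraries were lower. Its IL-4 scores were just below the controls as deposited, but the groups overlapped after normalization (log2 change 0.10 ± 0.55). Another Elf1 start, not a curated one, lay under the adjacent region named Wbp4, which scored 15.49, 15.69, 16.30 and 10.39. The other curated Elf1 start lay under a further region named Wbp4 (chr14:79515571-79515779). That region scored 4.74 and 5.92 in the controls, 9.41 in IL-4 replicate 1 and had no peak in IL-4 replicate 2. The regions over both curated Elf1 starts thus scored below the adjacent Wbp4 region in every library where they had a peak. Elf2, also called NERF, scored 12.92 and 8.44 in the controls and 7.96 and 5.05 after IL-4 at the start given in the files (981 bp upstream, log2 change -0.47 ± 0.49). The RefSeq annotation of GRCm38.p6 has 2 curated Elf2 starts instead. The first lies under the region 14779 bp upstream, at chr3:51340609-51341001, which scored 10.48, 10.76, 15.44 and 10.56. The groups overlapped there as deposited and were separated after normalization, with IL-4 higher (log2 change 0.51 ± 0.41, adjusted p = 0.796). The second lies under a region named for the non-coding gene 4930577N17Rik (chr3:51277292-51277522), which scored 4.46 and 3.26 in the controls, 14.21 in IL-4 replicate 1 and had no peak in IL-4 replicate 2. The log2 changes 981 bp and 14779 bp upstream of Elf2 had opposite signs, and neither passed the test.

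Elf4, also called MEF, is known for its part in type I interferon induction and has 2 curated starts with a region. The start named in the files scored 8.30, 8.78, 12.25 and 6.76, and the groups overlapped (log2 change 0.35 ± 0.48). The second start, 8829 bp downstream in intron 1 of 8, scored 21.44 and 12.91 in the controls and 12.50 and 5.11 after IL-4. Both IL-4 libraries were below both controls there, with a log2 change of -0.82 ± 0.42 (unadjusted p = 0.0549, adjusted p = 0.615) that was -1.29 to -0.35 over all alternatives. Whether the 2 starts of Elf4 differed in their response was not tested.

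Etv6 scored 9.28, 6.61, 9.98 and 8.28 at its start. The groups overlapped as deposited, but both IL-4 values were above both controls after normalization (log2 change 0.47 ± 0.48). The Elk3 start region was the control-only region described above. Erg had no region within 1 kb of the start given in the files. A single peak of control replicate 1, with a score of 6.74, lay 934 bp from another curated Erg start, and no other library had a peak there. For Spib, which acts in B cells and plasmacytoid dendritic cells, the nearest region to the curated start was 3816 bp away. It lay over the last exon of Spib (exon 6 of 6), was named for the neighbour Mybpc2, and scored 7.90, 9.87, 8.65 and 5.20.

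**Figure D3:**
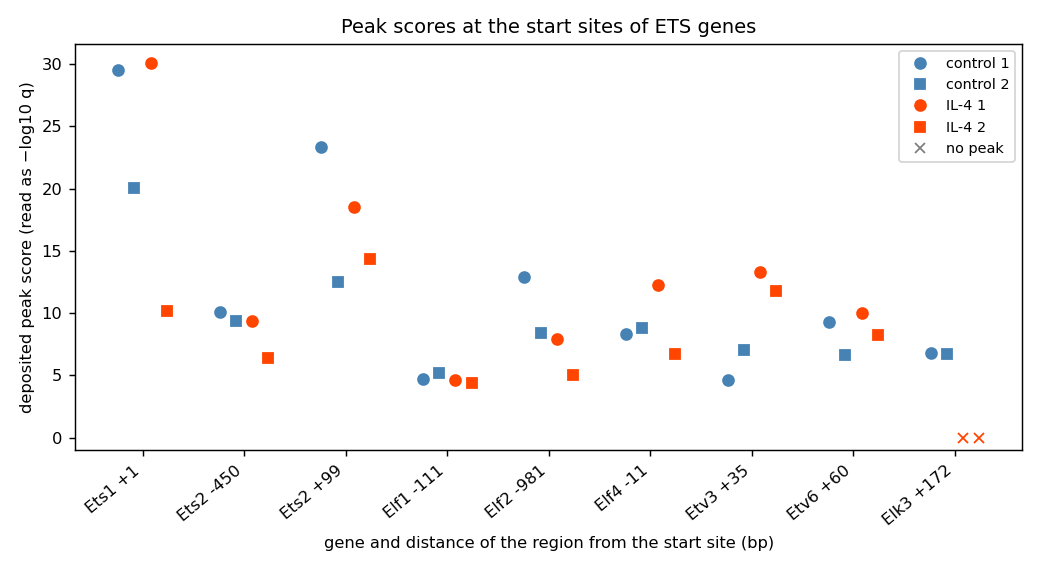
Deposited peak score (read as -log10 q) in each library at the 9 regions within 1 kb of the start given in the files, labelled by gene and distance in bp, with crosses at 0 for a library without a peak. Only at Etv3 did both IL-4 libraries stand above both controls, and the Elk3 region had no peak in either IL-4 library.

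The largest downward change of the 43 was at an intergenic region 5907 bp upstream of Elk3 (chr10:93316931-93317197). It scored 25.79 and 23.10 in the controls and 9.33 and 7.86 after IL-4, with a wide gap between the groups. The log2 change was -1.31 ± 0.35, or 2.47-fold lower (limma unadjusted p = 0.000469, adjusted p = 0.212). This p ranked 56 of 25442. The change was -1.33 to -1.22 over all alternatives, and the lowest adjusted p was 0.124. The region is shown with its 1 motif match, TGAATCA, in capitals.
Elk3 upstream, chr10:93316931-93317197: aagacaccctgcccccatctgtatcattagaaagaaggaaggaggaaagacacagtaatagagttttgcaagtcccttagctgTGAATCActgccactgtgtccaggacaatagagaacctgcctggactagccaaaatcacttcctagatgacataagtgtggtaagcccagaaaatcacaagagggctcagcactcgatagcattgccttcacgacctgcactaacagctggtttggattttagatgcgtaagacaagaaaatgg

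Both control-only Elk3 regions were defined by the lack of an IL-4 peak, and the region shown above was named for its low p. Their common direction follows from that selection and is no separate support for a change at Elk3. The other shared Elk3 regions, in introns 2 and 3, had log2 changes of 0.35 ± 0.40 and -0.17 ± 0.40. At the region in intron 2 the groups overlapped as deposited, but both IL-4 values were above both controls after normalization.

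An intergenic region 26581 bp downstream of Ets2 scored 24.61 and 20.60 in the controls and 12.80 and 12.28 after IL-4. The groups did not overlap, and the log2 change was -0.65 ± 0.32 (unadjusted p = 0.0483, adjusted p = 0.599). An intergenic region 40718 bp downstream of Etv3 scored 18.09 and 15.18 in the controls and 7.59 and 8.61 after IL-4, without overlap (log2 change -0.81 ± 0.41, adjusted p = 0.614). It had the opposite sign to the Etv3 start. The region 154220 bp downstream of the Etv6 start, in intron 2, scored 17.52 and 12.50 in the controls and 9.54 and 6.86 after IL-4, also without overlap (log2 change -0.63 ± 0.42, adjusted p = 0.738). At another Etv6 region, 98209 bp downstream in intron 1, the scores were 8.80 and 13.36 in the controls and 3.80 and 7.86 after IL-4. The deposited scores did not overlap, but the normalized ones did (log2 change -0.75 ± 0.52, and -1.44 to -0.04 over all alternatives).

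Among the regions with higher scores after IL-4, a second Etv6 region in intron 2, 136795 bp downstream, had 4.31 and 3.80 in the controls and 6.41 and 6.21 after IL-4. The groups did not overlap, but all 4 scores were low (log2 change 0.84 ± 0.54, adjusted p = 0.723). The higher of the 2 shared Erg values was at 93497 bp downstream, with 6.72 and 7.48 in the controls and 18.25 and 6.62 after IL-4 (log2 change 0.88 ± 0.48, adjusted p = 0.647). As deposited, only IL-4 replicate 1 was high there, whereas after normalization both IL-4 values were above both controls. The change was 0.33 without IL-4 replicate 1 and 1.42 without IL-4 replicate 2. The other Erg region, 98003 bp downstream, scored 11.91, 6.43, 16.35 and 7.98, and the groups overlapped (log2 change 0.62 ± 0.45). The distal Ets1 region 244656 bp downstream, also among the 6 lowest upward p-values, scored 6.93, 3.46, 6.62 and 6.29. The groups overlapped as deposited, but both IL-4 values were above both controls after normalization (log2 change 0.66 ± 0.54).

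**Figure D4:**
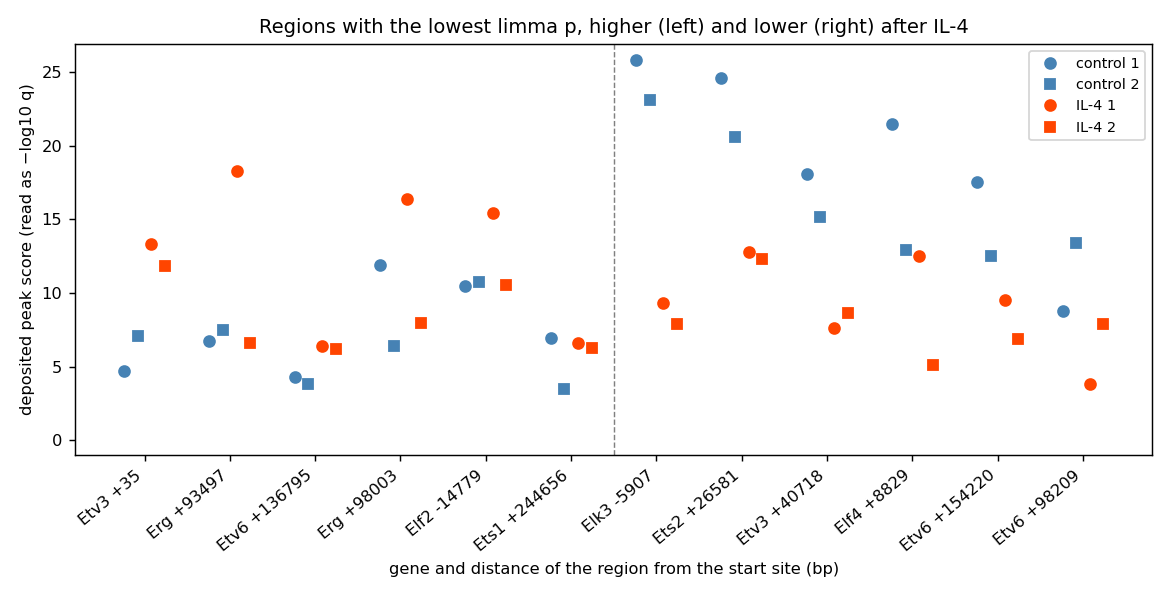
Deposited peak score (read as -log10 q) in each library at the 6 regions with the lowest limma p among higher (left of the dashed line) and lower (right) changes, labelled by gene and distance from the start in bp. At Etv3 +35 the controls were at 4.67 and 7.08 against 13.29 and 11.80 after IL-4, and at Elk3 -5907 they were at 25.79 and 23.10 against 9.33 and 7.86.

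The strongest region of the 10 genes was in intron 1 of 6 of Ets1, 13879 bp downstream of the start. It scored 31.17 and 22.72 in the controls and 38.32 and 18.63 after IL-4. The IL-4 libraries held both the highest and the lowest value (log2 change 0.15 ± 0.25). The strongest Etv3 and Elf2 regions were 4209 bp and 7500 bp upstream. Etv3 scored 18.11, 14.63, 15.38 and 10.38 there (log2 change -0.14 ± 0.36), and Elf2 scored 18.78, 20.21, 21.22 and 10.75 (-0.16 ± 0.32). The strongest shared region of Etv6 by mean score, 29528 bp downstream in intron 1, scored 13.99, 16.19, 13.05 and 12.35 (-0.02 ± 0.37). Its IL-4 scores were below both controls as deposited, but the groups overlapped after normalization.

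Motif content was counted over all 97 regions. The core GGAA was in 94 of them (96.9%, 95% Wilson interval 91.3% to 98.9%, beside 91.5% of all regions). Both longer ETS motifs contain this core. CCGGAAG was in 5 (5.15%, interval 2.22% to 11.5%, beside 6.26%) and GAGGAAG was in 25 (25.8%, interval 18.1% to 35.3%, beside 23.3%). The STAT6 spacing was in 11 (11.3%, 95% Wilson interval 6.45% to 19.2%, beside 7.22%) and TTCNNNGAA was in 14 (14.4%, interval 8.8% to 22.8%, beside 6.9%). TGANTCA was in 21 (21.6%, interval 14.6% to 30.8%, beside 21.8%). Among all regions, the STAT6 spacing was in 30.9% of IL-4-only regions and 2.24% of control-only regions, and of the 3 IL-4-only ETS regions the Ets1 region alone held it. The intervals cover counting error only, and regions near the same gene are not independent. They are no test of any motif, and several motifs were counted.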

How the data were processed

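ATAC-seq was performed on 2 control and 2 IL-4 BMDM libraries. The authors aligned reads to mm10 with BWA, called peaks per library with MACS2, removed blacklisted regions and annotated peaks with HOMER. The submitters' processing notes list BWA 0.7.10, SAMtools 0.1.19, HOMER 4.2 and MACS2 2.0.10. Tn5 shifting and duplicate removal are not given in the sources used here. The deposited peak score has no stated unit and was read as −log10 of the q-value, since the lowest scores were 1.3 and 1.32. This is an inference: the methods name a q of 0.01 or less, a score of 2, and 133 to 603 peaks per library scored below 2. Depth is unknown, so the DiffBind step of the methods could not be repeated.

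Autosomal (1 to 19), X and Y peaks that shared at least 1 bp were merged. The highest score per library was kept, with the gene name of the top peak. Scores of the 25442 regions present in every library were placed on a log2 scale, quantile-normalized and fitted with limma 3.58.1 in R 4.3.3 (trended eBayes). Benjamini-Hochberg adjustment covered all of these, at a threshold of 0.05. The procedure was tested on simulated data with planted changes larger than any seen in the ETS regions. That test does not show how well changes of the reported sizes would be called. Motifs were searched on both strands of GRCm38.p6, the assembly behind mm10, and gene bodies and starts were taken from its RefSeq annotation. Promoter sequences of RefSeq were found for 9 of the 10 genes. Named regions were those within 1 kb of a start, the highest of each gene, the regions of 1 group only and the 6 with the lowest p in each direction. The 24 of these with a log2 change, which needs a peak in every library, were refitted under the alternatives. The genes, lists and tests were chosen with earlier results of these data known. Alternatives covered the normalization, pseudocount, variance trend, replicate block, score minimum, merging distance, motif window and the omission of each library.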

Additional observations from a re-analysis of the deposited data

How the results depend on the processing

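No ETS region was called by limma under any of the alternatives, and 227 of 240 comparisons over the 24 named regions with a log2 change kept their direction. The direction turned in 13, at 8 regions with small changes. With peaks merged within 500 bp, the change was 0.14 at Ets2 450 bp upstream and -0.03 at the Elf1 start. With any 1 library left out, the change ran from -0.20 to 0.03 at Ets2 450 bp upstream, from -0.24 to 0.52 at the Ets2 start, from -0.09 to 0.27 at the Elf1 start, from -0.21 to 0.72 at Elf1 11405 bp upstream, from -0.21 to 0.50 at Ets1 13879 bp downstream, from -0.23 to 0.18 at Etv6 29528 bp downstream, from -0.89 to 0.30 at the Ets1 start and from -0.48 to 0.16 at Elf2 7500 bp upstream. The number of ETS regions was 52 with scores above the pooled median of 7.37. IL-4-only regions numbered 1 with scores above that median (1.89% of all regions were IL-4-only), 9 when a peak in 1 library of the other group was tolerated (7.15%), and 4 to 12 with any 1 library left out (4.6% to 10%). Control-only regions numbered 2 with peaks merged within 500 bp (4.13% of all regions), 15 when a peak in 1 library was tolerated (13%), and 6 to 13 with any 1 library left out (7.74% to 14.7%). Merging within 500 bp joined each control-only Etv6 region to its neighbour with an IL-4 peak. Leaving out a library loosens the definitions of group-only regions by construction. The cause of the other shifts was not tested. The median log2 change of the ETS regions was -0.17 without control replicate 1 and -0.02 without control replicate 2. It was -0.09 without IL-4 replicate 1 and -0.01 without IL-4 replicate 2. Over all regions, the 6 calls became 12 without control replicate 2, 0 without either IL-4 replicate and 0 without a variance trend. In the 200 bp around the region centre, CCGGAAG was in 1 ETS region (1.03%), beside 4.56% of all regions. With the replicate number as a block, 0 ETS regions and 14 regions in all were called, and the median change of the ETS regions was -0.14. The numbers are not shown to pair the libraries, with a Pearson's r of 0.0068 between the replicate differences of the groups across 25442 regions, which are not independent. With 2 libraries per group and unknown depth, a missing peak may be a weak one, and only large changes could pass.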

Other observations

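Naming regions by the nearest start leaves out regions that lie inside ETS genes. The bodies of Elf1, Elf2, Etv6 and Spib held 21 regions named for a neighbour, and 7 of these were found in every library. Elf1 held 12 of them, named for Wbp4 and Sugt1, beside the 2 regions that carry its own name. The strongest in Elf1 intron 1 of 8, at chr14:79522488-79522701, scored 22.94 and 14.45 in the controls and 13.21 and 7.24 after IL-4, without overlap as deposited (log2 change -0.68, limma adjusted p = 0.653). The Wbp4 promoter region, at chr14:79481480-79481956 and close to the Elf1 start, scored 15.49, 15.69, 16.30 and 10.39 (log2 change -0.03). In Elf2, the promoter of the non-coding gene 4930577N17Rik (chr3:51276031-51276447) scored 37.85, 25.94, 28.44 and 19.44, in each library above any region named Elf2. Etv6 held 4 regions named for Bcl2l14. One of them, in intron 4 of 7 at chr6:134243696-134243902, scored 9.43 and 9.06 in the controls and had no peak after IL-4. Another in the same intron, at chr6:134247399-134247627, scored 11.53 and 14.50 in the controls and 22.01 and 14.75 after IL-4 (log2 change 0.69, adjusted p = 0.61).

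Of 17 other ETS genes, 14 had a region, 78 in all, and Spic, Etv2 and Etv3l had none. A peak in all 4 libraries was found at 40 of these regions, and limma called 0 of the 40, beside 6 of 25442 in all. An unadjusted limma p under 0.05 was found for 3 of the 40 (2 higher and 1 lower after IL-4), beside 8.28% of all shared regions. The median log2 change of the 40 was -0.09. The start of Spi1, which encodes PU.1, scored 14.75 and 15.45 in the controls and 11.02 and 8.29 after IL-4, without overlap as deposited (log2 change -0.42, limma adjusted p = 0.841). Over all shared regions, deposited scores were also lowest in IL-4 replicate 2, with a median of 8.86. The highest start sites of the ETS genes were those of Gabpa, whose product is a subunit of GA-binding protein, with 39.02, 26.76, 28.06 and 27.16, and of Etv5, with 38.94, 27.38, 24.28 and 18.81.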
